A study of Oryza sativa Japonica Group with 18 samples.

Results

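Ethylene is a gaseous plant hormone, and 9 rice genes for its synthesis, its receptors and its signal transduction are described here out of 38610 rows of an expression table. They are 3 genes of synthesis (ACS1, ACS2 and an ACC oxidase), 4 receptor genes (ERS1, ERS2, ETR2 and ETR3) and 2 signalling genes (EIN2 and EIL1). They were chosen by locus ID, with earlier results of these data known, so counts of called genes are a description. All 9 are in the table, and all 9 passed the filter on low values that 23175 rows passed.

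Messenger RNA was sequenced from leaves of Oryza sativa Japonica seedlings at the stage of 3 leaves. The wild type (WT), a transgenic rice that overexpresses OsERF096 (OsERF096-OX, here OX) and a transgenic rice with an RNA interference construct against it (OsERF096-RNAi, here RNAi) were each sampled under normal growth conditions (control) and after 12 h at 4 °C (cold), with 3 libraries in each of the 6 groups. OsERF096 carries the name of the ethylene response factor family of transcription factors. The design asks how leaves respond to cold and whether the 2 transgenic lines differ from WT before and after it. No source used here names the promoter of the overexpression construct, the number of independent transformants or the plants behind each replicate. The p-values therefore reflect variation among the libraries alone, and this may be technical. OsERF096's own level was not analysed here, and the line labels were not checked by it.

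Ethylene is made from S-adenosylmethionine. ACC synthase turns it into 1-aminocyclopropane-1-carboxylic acid (ACC), which is usually the limiting step, and ACC oxidase turns ACC into ethylene. The receptors sit in the endoplasmic reticulum membrane and repress the pathway when no ethylene is bound, so that more receptor generally means less sensitivity. When they are switched off by ethylene, the membrane protein EIN2 passes the signal on and stabilises transcription factors of the EIN3/EIL family in the nucleus.

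Values are FPKM, fragments scaled to transcript length and library total, which can be compared between genes. Differences are on the log2(FPKM + 1) scale with their standard error (SE), come from 1 limma model over the 18 libraries, and count as called where p, adjusted over all genes tested by Benjamini and Hochberg's method, was under 0.05. Between 19597 and 20939 genes reached 1 FPKM in a library, read totals are unknown, and the relative depth estimated from low values ran from 0.896 to 1.44 times that of the median library. The 6 leaf markers summed to 14476 to 43107 FPKM, while 3 of 4 root markers had a median under 1 FPKM, with root sums of 0.605 to 14.8. The cold-induced transcription factor genes DREB1A and DREB1B summed to 0.643 to 12.9 FPKM in control libraries and to 585 to 2115 in cold libraries, as the labels have it. Within the cold, this sum was 1810 to 2115 FPKM in WT, 1225 to 1312 in OX and 585 to 883 in RNAi, without overlap between lines. WT control replicate 2 stood apart from its group, with 10.3 FPKM over 3 secondary wall cellulose synthase genes where replicates 1 and 3 had 183 and 248, so some WT results are also given without it. In whole leaves, fewer cells of a type and less RNA per cell cannot be told apart.

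In WT leaves the cold raised ACS1 and ACS2 and lowered all 4 receptor genes, and EIN2 was called lower on the strength of 2 libraries. Of the 9 genes, 2 were called higher and 5 lower, where 14.0% of all tested genes were called higher and 31.7% lower. The median difference was -0.94 over the 9 genes and -0.22 over all genes tested. Without WT control replicate 2 the same 7 genes were called, at 2.99 for ACS1, 3.69 for ACS2, -0.88 for ERS1, -1.28 for ERS2, -0.81 for ETR2, -1.68 for ETR3 and -2.59 for EIN2 (adjusted p = 0.0437 for EIN2 and 0.00119 or less for the others, limma). In OX leaves 3 were called higher and 1 lower, with 13.6% and 22.4% of all genes. In RNAi leaves 4 were called higher and 1 lower, with 16.9% and 28.1% of all genes. The medians in OX and RNAi were 0.34 and 0.61, beside -0.18 and -0.16 over all genes. Scaling by median ratios moved the WT median of all genes to 0.01. Of the genes called in the cold in WT, 30.7% were higher as deposited, 52.7% after that scaling and 45.2% after quantile normalization. In OX these shares were 37.8%, 55.8% and 43.4%, and in RNAi 37.6%, 52.8% and 42.5%.

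**Figure D1:**
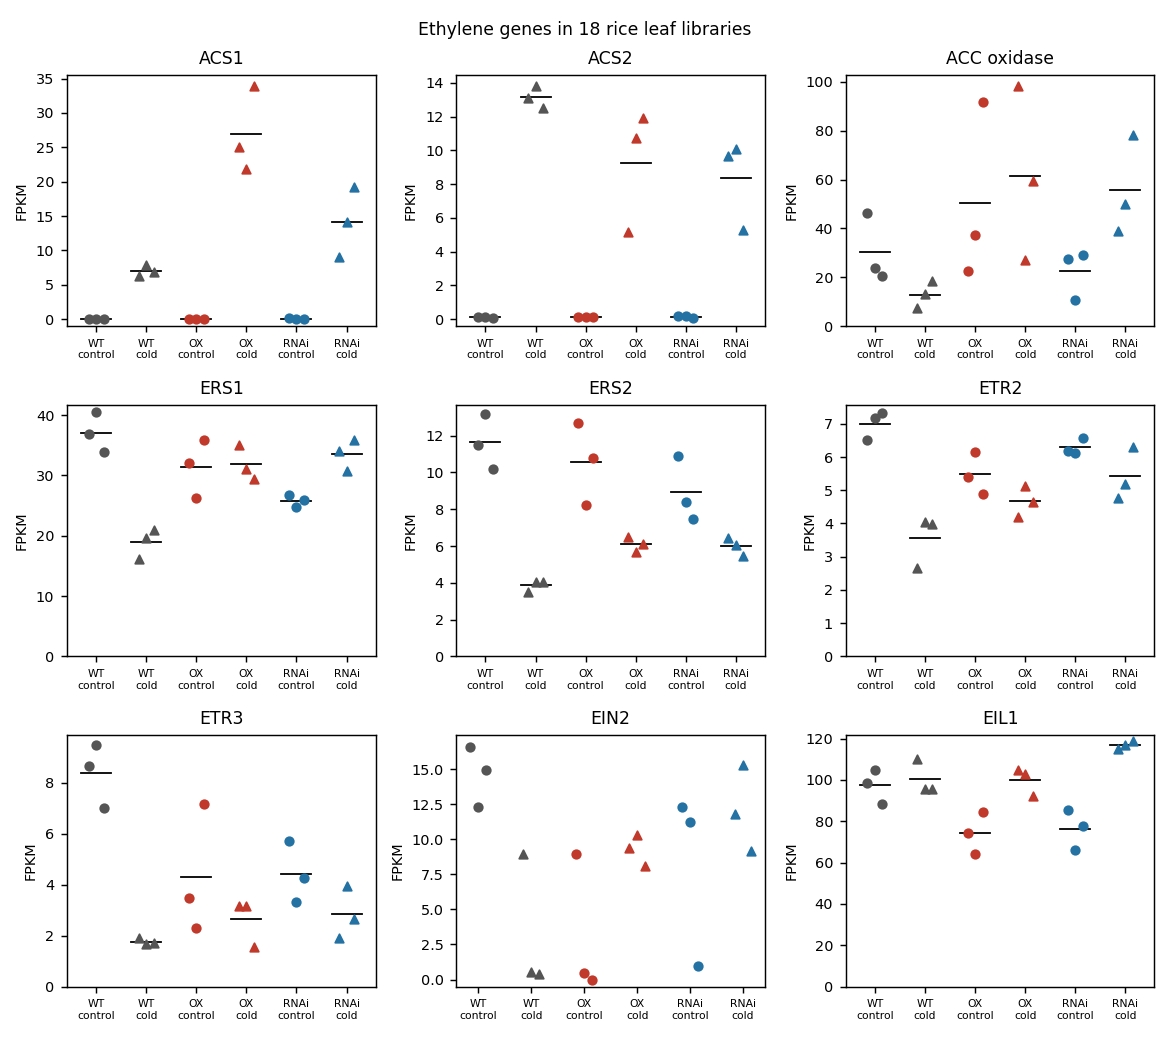
FPKM of the 9 ethylene genes in each of 18 libraries, with 1 panel per gene and 6 groups on the horizontal axis. Points are libraries (circles control, triangles cold), and lines are group means, drawn for every gene except EIN2; ACS1 and ACS2 are near 0 in all control libraries, and ERS1 is at 16.1 to 21.0 FPKM in WT cold libraries and at 24.7 or more elsewhere.

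ACS1 (Os03g0727600, chromosome 3) is an ACC synthase gene. It was listed at 0 in all 3 WT control libraries, and stood at 6.22, 7.81 and 6.84 FPKM in the WT cold libraries. In OX it was listed at 0, 0.0342 and 0 FPKM in control leaves, and reached 25.0, 21.8 and 33.9 FPKM in the cold. In RNAi it was at 0.161, 0 and 0.0404 FPKM before the cold and at 9.04, 14.2 and 19.3 FPKM after it. Every cold library was above every control library, and the cold libraries of the 3 lines did not overlap, with OX highest, RNAi next and WT lowest. No fold over control is given, since control values are at or near 0. The cold difference was 2.99 ± 0.21 in WT (adjusted p = 2.87e-08, limma), 4.76 ± 0.21 in OX (adjusted p = 1.81e-10) and 3.77 ± 0.21 in RNAi (adjusted p = 1.52e-09).

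ACS2 (Os04g0578000, chromosome 4), another ACC synthase gene, had a different order of the lines. It lay between 0.0451 and 0.203 FPKM in the 9 control libraries. In the cold it was at 13.1, 13.8 and 12.5 FPKM in WT, at 5.18, 10.7 and 11.9 in OX, and at 9.69, 10.1 and 5.28 in RNAi. All cold libraries were above all control libraries, and the WT cold libraries were above all OX and RNAi cold libraries, which overlapped each other. The cold difference was 3.68 ± 0.24 in WT (adjusted p = 1.44e-08, limma), 3.14 ± 0.24 in OX (adjusted p = 6.71e-08) and 2.98 ± 0.24 in RNAi (adjusted p = 1.01e-07). Among cold libraries, OX was -0.53 ± 0.24 from WT (adjusted p = 0.162) and RNAi -0.64 ± 0.24 (adjusted p = 0.0593), neither called. The RNAi difference was called after median-ratio scaling (adjusted p = 0.0471) and after quantile normalization (adjusted p = 0.0447).

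The balance of ACS1 and ACS2 transcripts in the cold lay in other ranges in the transgenic lines than in WT. ACS1 made up 32.3, 36.2 and 35.3% of their sum in the WT cold libraries, 82.8, 67.0 and 74.1% in OX and 48.2, 58.4 and 78.5% in RNAi. The sum itself was 19.3 to 21.6 FPKM in WT, 18.7 to 24.6 in RNAi and 30.2 to 45.7 in OX, so that WT and RNAi overlapped and OX lay above both. These shares are a description of the same values and were given no test. They leave out Os06g0130400, a locus listed as an ACC synthase gene without a matched name. Its mean was 54.7 FPKM in WT control and 72.8 in WT cold leaves, 51.6 and 60.5 in OX, and 69.6 and 69.2 in RNAi. The cold difference of Os06g0130400 was called in WT (0.41 ± 0.16, adjusted p = 0.0442, limma) and not in OX (0.25) or RNAi (-0.01).

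**Figure D2:**
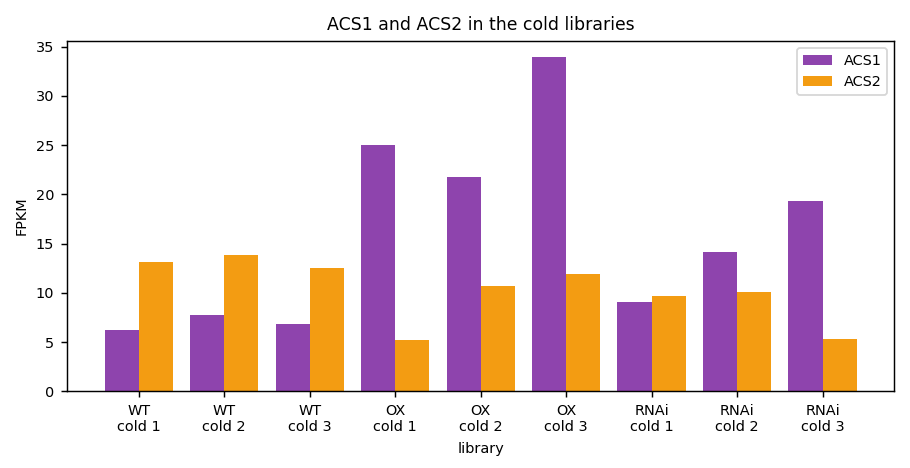
FPKM of ACS1 and ACS2 (paired bars) in each of the 9 cold libraries. ACS2 is the higher bar in the 3 WT libraries (12.5 to 13.8 against 6.22 to 7.81 FPKM) and ACS1 is the higher bar in the 3 OX libraries.

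The ACC oxidase gene (Os09g0451000, chromosome 9) carries a name that the reference gene table used here does not pair with this locus. It varied widely among libraries of a group, and went opposite ways in WT and RNAi. WT control libraries stood at 46.2, 23.7 and 20.7 FPKM and WT cold libraries at 7.22, 13.1 and 18.5. OX libraries ran from 22.6 to 91.7 FPKM before and from 27.1 to 98.4 FPKM after the cold. RNAi control libraries stood at 27.4, 10.7 and 29.1 FPKM and RNAi cold libraries at 39.1, 50.0 and 78.2. Control and cold libraries did not overlap in WT, where cold was lower, nor in RNAi, where cold was higher, while they overlapped in OX. None of these differences was called with limma, at -1.16 ± 0.55 in WT (adjusted p = 0.0977), 0.34 ± 0.55 in OX (adjusted p = 0.671) and 1.34 ± 0.55 in RNAi (adjusted p = 0.0595). The RNAi difference was called after median-ratio scaling (adjusted p = 0.0311) and after quantile normalization (adjusted p = 0.0482).

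ERS1 (Os03g0701700, chromosome 3) was the most abundant receptor transcript in every library. It stood at 36.9, 40.5 and 33.9 FPKM in WT control leaves and at 16.1, 19.6 and 21.0 after the cold. OX libraries were at 32.0, 26.2 and 35.9 FPKM before and 35.1, 31.1 and 29.4 after the cold. RNAi libraries were at 26.8, 24.7 and 25.9 FPKM before and 34.1, 30.8 and 35.8 after the cold. Cold libraries were all lower in WT and all higher in RNAi, and they overlapped the control libraries in OX. ERS1 fell by 0.94 ± 0.13 in WT (adjusted p = 4.06e-05, limma), a drop of 1.96 times in mean FPKM. In OX the difference was 0.03 ± 0.13 (adjusted p = 0.886, interval -0.25 to 0.31), and in RNAi ERS1 rose by 0.37 ± 0.13 (adjusted p = 0.0322). The rise in RNAi was no longer called without RNAi control replicate 1 (adjusted p = 0.0509), 2 (0.0935) or 3 (0.0696), or without RNAi cold replicate 1 (0.079) or 3 (0.0981). Over the 15 alternatives it ran from 0.32 to 0.56, with a lowest adjusted p of 0.00231 (limma). The WT difference ran from -1.02 to -0.67 and was called in each. In order of mean, WT control, RNAi cold, OX cold, OX control and RNAi control overlapped each with the next, and WT cold was below all of them.

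ERS2 (Os05g0155200, chromosome 5), which like ERS1 encodes a receptor of the subfamily with a conserved histidine kinase domain, fell in each line. WT libraries stood at 11.5, 13.2 and 10.2 FPKM before and at 3.51, 4.07 and 4.03 after the cold. OX libraries stood at 12.7, 8.23 and 10.8 FPKM before and at 6.48, 5.67 and 6.10 after the cold. RNAi libraries stood at 10.9, 8.40 and 7.46 FPKM before and at 6.46, 6.07 and 5.48 after the cold. Control and cold libraries did not overlap in any line, and the WT cold libraries were below those of OX and RNAi, which overlapped. The difference was -1.37 ± 0.16 in WT (adjusted p = 6.7e-06, limma), a drop of 2.99 times in mean FPKM, -0.69 ± 0.16 in OX (adjusted p = 0.00287) and -0.49 ± 0.16 in RNAi (adjusted p = 0.0195). The fall in RNAi was no longer called after median-ratio scaling (adjusted p = 0.113) or quantile normalization (adjusted p = 0.0707), or without RNAi control replicate 1 (0.102) or RNAi cold replicate 3 (0.0652).

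ETR2 (Os04g0169100, chromosome 4), of the other receptor subfamily, had a narrow range of 2.65 to 7.34 FPKM over the 18 libraries. It stood at 6.50, 7.18 and 7.34 FPKM in WT control leaves and at 2.65, 4.03 and 3.97 after the cold. OX ran from 4.89 to 6.14 FPKM before and from 4.20 to 5.14 after the cold, and RNAi from 6.12 to 6.58 and from 4.77 to 6.29. The WT cold libraries were the 3 lowest of all 18, and control and cold overlapped in OX and in RNAi. ETR2 fell by 0.83 ± 0.14 in WT (adjusted p = 0.000265, limma), or 1.97 times in mean FPKM. Its difference was -0.19 ± 0.14 both in OX (adjusted p = 0.312, interval -0.50 to 0.11) and in RNAi (adjusted p = 0.298, interval -0.49 to 0.11).

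ETR3 (Os02g0820900, chromosome 2), a receptor gene of the same subfamily as ETR2, had the largest ratio of change among the receptors in WT. It stood at 8.67, 9.48 and 6.99 FPKM before and at 1.89, 1.66 and 1.69 FPKM after the cold, a drop of 4.80 times in mean FPKM and of 1.76 ± 0.29 on the log2 scale (difference -1.76, adjusted p = 0.000206, limma). OX control libraries stood at 3.46, 2.31 and 7.16 FPKM and OX cold libraries at 3.17, 3.18 and 1.57. RNAi control libraries stood at 5.70, 3.31 and 4.25 FPKM and RNAi cold libraries at 1.91, 3.94 and 2.67. Groups were apart in WT and overlapped in OX and in RNAi. The difference was -0.47 ± 0.29 in OX (adjusted p = 0.227, interval -1.10 to 0.15) and -0.51 ± 0.29 in RNAi (adjusted p = 0.175, interval -1.13 to 0.12). The size of the WT falls varied over the alternatives, all of them called. It ran from -1.55 to -1.09 for ERS2, from -0.98 to -0.51 for ETR2 and from -2.19 to -1.49 for ETR3.

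Summed over the 4 receptor genes, transcripts stood at 58.4 to 70.3 FPKM in WT control leaves and at 24.2 to 30.7 in WT cold leaves. The sum was 42.9 to 58.8 FPKM before and 41.8 to 49.0 after the cold in OX, and 42.5 to 49.6 before and 46.0 to 50.3 after it in RNAi. Control and cold libraries were apart in WT and overlapped in OX and in RNAi. ERS1 made up 57.9% ± 0.292 (SD, n = 3) of the sum in WT control and 67.3% ± 1.01 in WT cold leaves, 60.7% ± 0.752 and 70.4% ± 1.37 in OX, and 56.9% ± 2.50 and 70.2% ± 2.80 in RNAi. Its share was thus higher in the cold libraries of each line, whether or not ERS1 itself fell.

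**Figure D3:**
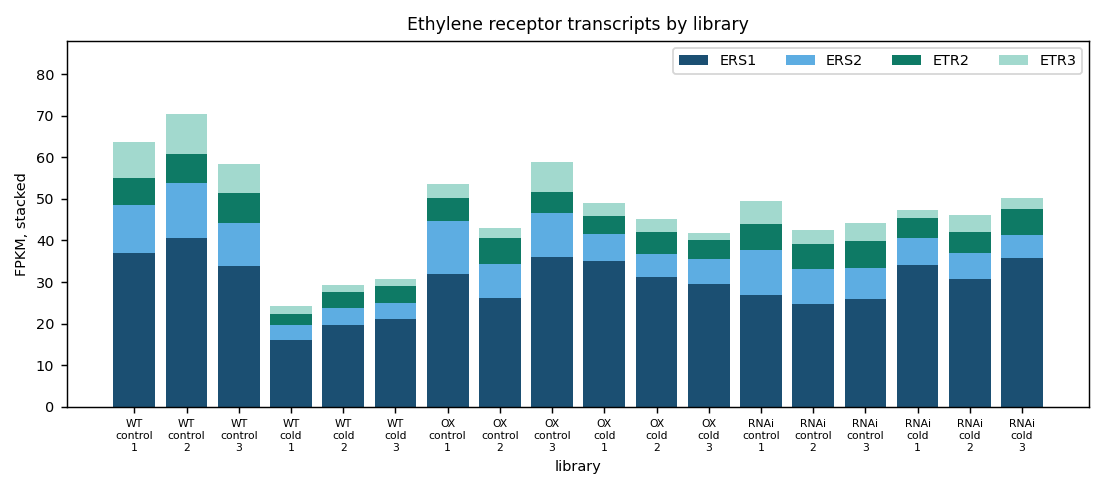
FPKM of the 4 receptor genes, stacked, in each of 18 libraries in the order WT, OX, RNAi. The 3 WT cold bars (24.2 to 30.7 FPKM) are the shortest, and ERS1 is the largest segment of every bar.

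EIN2 (Os07g0155600, chromosome 7) split the libraries of 3 groups. WT control libraries stood at 16.6, 12.3 and 14.9 FPKM, and WT cold libraries at 8.93, 0.558 and 0.385. OX control libraries stood at 8.98, 0.440 and 0 FPKM, and OX cold libraries at 9.40, 10.3 and 8.07. RNAi control libraries stood at 12.3, 11.2 and 0.955 FPKM, and RNAi cold libraries at 11.8, 15.3 and 9.18. In all, 5 libraries were under 1 FPKM, 13 were at 8.07 FPKM or above, and 0 lay between. Such a split, with a library of at least 8 FPKM and another under 1 in the same group, occurred in at least 3 groups for 11 of 23175 genes tested, and in at least 1 group for 209. The leaf gene RBCS (Os12g0274700) also had far apart values within groups, but in another pattern. In WT cold leaves it stood at 2430, 12856 and 14062 FPKM, low in replicate 1, where EIN2 was high. In OX control leaves it stood at 13041, 18192 and 2049 FPKM, low in replicate 3, where EIN2 was at 0. RNAi control leaves, which EIN2 split, had RBCS closer together, at 13408, 15459 and 17815 FPKM. It was far apart in WT control (2789, 12189 and 3039 FPKM), OX cold (15466, 1627 and 11056) and RNAi cold leaves (15990, 2801 and 15038), where EIN2 was not split. Whether the low EIN2 values are transcript levels or failed estimates was not tested.

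**Figure D4:**
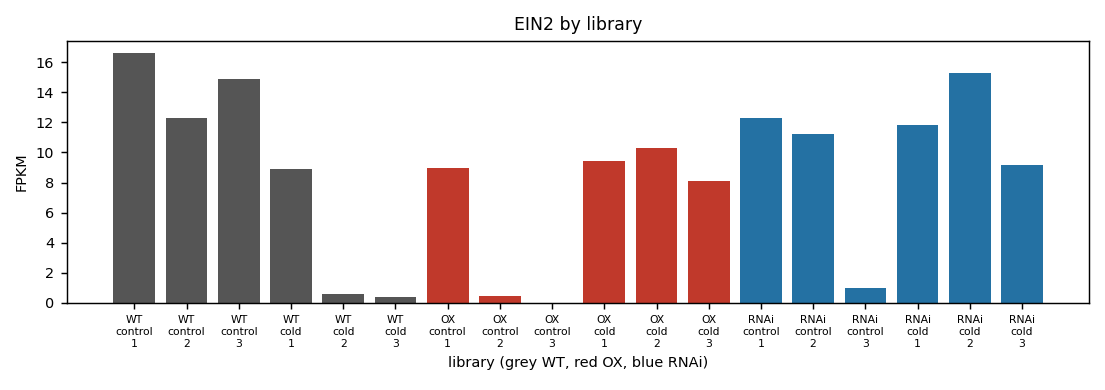
FPKM of EIN2 in each of 18 libraries, colored by line. The 5 libraries under 1 FPKM belong to WT cold, OX control and RNAi control, and every other bar is at 8.07 FPKM or above.

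With these values, limma called EIN2 lower in WT cold leaves, with a difference of -2.48 ± 0.86 (adjusted p = 0.0275). The call was lost without WT cold replicate 2 (adjusted p = 0.104) or 3 (0.107) and without WT control replicate 1 (0.0651) or 3 (0.057). It was also lost with a pseudocount of 0.1 (adjusted p = 0.0532) and with no filter (0.0636). In OX the difference was 2.07 ± 0.86 (adjusted p = 0.0717) and in RNAi 0.92 ± 0.86 (adjusted p = 0.41), with overlapping groups in both.

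EIL1 (Os03g0324200, chromosome 3), of the EIN3/EIL transcription factors that act below EIN2, was the most abundant of the 9 genes by its median of 95.6 FPKM over the 18 libraries. The reference gene table holds 2 adjacent genes under that name, and which of them this row is was not settled. WT libraries stood at 98.4, 105 and 88.5 FPKM before and at 110, 95.8 and 95.5 after the cold. OX libraries stood at 74.3, 64.1 and 84.3 FPKM before and at 105, 103 and 92.4 after the cold. RNAi libraries stood at 85.4, 66.2 and 77.7 FPKM before and at 115, 117 and 119 after the cold. Control and cold overlapped in WT and not in OX or RNAi, where every cold library was higher. EIL1 rose by 0.44 ± 0.12 in OX (adjusted p = 0.0124, limma) and by 0.61 ± 0.12 in RNAi (adjusted p = 0.000976). Its difference in WT was 0.05 ± 0.12 (adjusted p = 0.78), which turned to -0.11 after quantile normalization and was called at 0.32 (adjusted p = 0.0303) after median-ratio scaling. The OX call was lost without OX control replicate 2 (adjusted p = 0.054) and in a fit of the 2 OX groups alone (adjusted p = 0.0695).

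**Figure D5:**
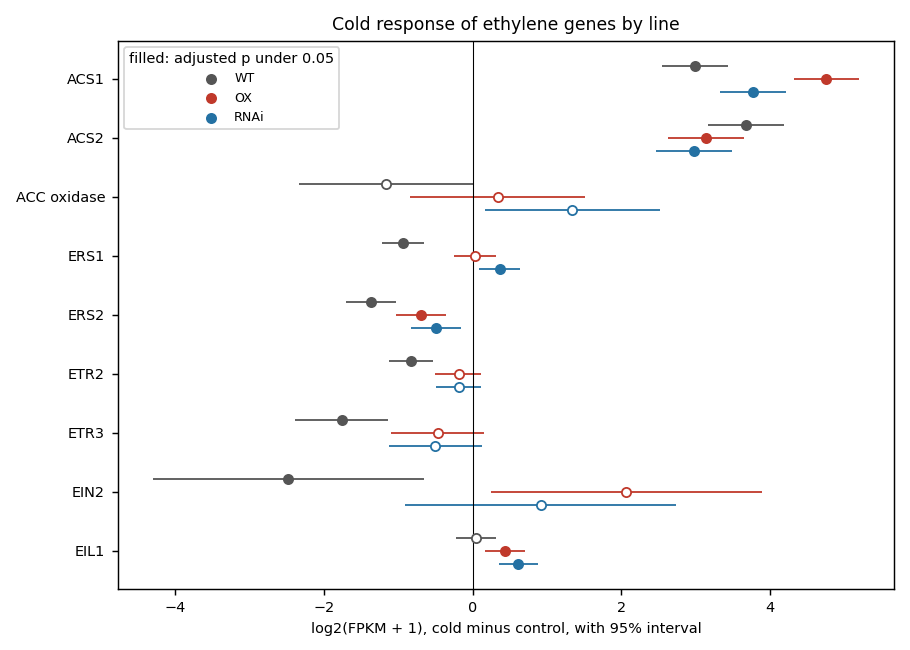
Cold minus control on the log2(FPKM + 1) scale for the 9 ethylene genes in WT, OX and RNAi, with 95% intervals, and with filled points for adjusted p under 0.05. ERS1, for example, is at -0.94 in WT, 0.03 in OX and 0.37 in RNAi, and the EIN2 intervals are the widest.

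Before the cold, 0 of the 9 genes were called between any pair of lines with limma, also without WT control replicate 2. At an unadjusted p under 0.05 there were 4 for OX against WT, 4 for RNAi against WT and 0 for OX against RNAi. Over the 23175 genes tested, 4441, 5407 and 3486 had such an unadjusted p. Of all genes tested, 4.00%, 2.61% and 1.73% were called in these comparisons. For RNAi against WT, 33.3% of called genes were higher as deposited, 53.4% after median-ratio scaling and 50.7% after quantile normalization. ERS1 came nearest in RNAi, at 25.8 ± 1.05 FPKM against 37.1 ± 3.28 in WT (SD, n = 3), without overlap (difference -0.50 ± 0.13, adjusted p = 0.0528). EIL1 was also lower without overlap in both transgenic lines, by -0.39 ± 0.12 in OX (adjusted p = 0.0929) and -0.35 ± 0.12 in RNAi (adjusted p = 0.117). The OX difference of EIL1 was called after quantile normalization (adjusted p = 0.0292). EIN2 was lower in OX without overlap (-2.67 ± 0.86, adjusted p = 0.0939), which was called without OX control replicate 1 (0.018), the library of that group at 8.98 FPKM. The ETR3 difference in OX (-0.92 ± 0.29, adjusted p = 0.094) was called without OX control replicate 3 (0.0221). With library weights, 5 genes were called for RNAi against WT, all lower, namely ERS1 (adjusted p = 0.00343), ETR3 (0.0186), ERS2 (0.0212), EIN2 (0.0263) and EIL1 (0.0361). Of all 23175 genes tested, 1983 were then called higher and 4189 lower in that comparison, against 201 and 403 without the weights.

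In cold leaves, called genes were higher in the transgenic lines than in WT. For OX against WT, 4 of 9 were called higher and 0 lower, with 9.49% and 3.38% of all genes, and for RNAi against WT 5 higher and 0 lower, with 15.7% and 11.9%. The medians over the 9 genes were 0.54 and 0.52, and those over all genes 0.08 and 0.02. For OX against WT, 73.7% of called genes were higher as deposited, 62.8% after median-ratio scaling and 54.2% after quantile normalization. The OX and RNAi comparisons share the WT libraries. The count for OX was 2 without WT cold replicate 1 or 2, or without OX cold replicate 1 or 3, and that for RNAi was 3 without WT cold replicate 1 or RNAi cold replicate 3.

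ACS1 was 3.87 times as high in OX as in WT by mean FPKM (1.79 ± 0.21, adjusted p = 4.26e-05, limma) and 2.04 times as high in RNAi (0.88 ± 0.21, adjusted p = 0.00625). ACC oxidase was 4.75 times as high in OX (2.07 ± 0.55, adjusted p = 0.0231) and 4.31 times as high in RNAi (2.05 ± 0.55, adjusted p = 0.0127), again without overlap with WT. The OX call of ACC oxidase was lost without WT cold replicate 1 (adjusted p = 0.117) or 2 (0.0615), without OX cold replicate 1 (0.0986) or 3 (0.0707), and with no filter (0.056). Its RNAi call was lost without WT cold replicate 1 (0.0652) or RNAi cold replicate 3 (0.0528).

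Among the receptors in cold leaves, ERS1 was 1.69 times as high in OX as in WT (0.73 ± 0.13, adjusted p = 0.00203, limma) and 1.78 times in RNAi (0.80 ± 0.13, adjusted p = 0.000567), and both calls held in every alternative run. ERS2 was 1.57 times as high in OX (0.54 ± 0.16, adjusted p = 0.0354) and 1.55 times in RNAi (0.52 ± 0.16, adjusted p = 0.0231). The OX call of ERS2 was lost in 8 of 15 alternatives, among them both scalings (adjusted p = 0.0533 and 0.141) and each fit without 1 of the 6 libraries compared. The RNAi call of ERS2 was lost after quantile normalization (0.0541) and without WT cold replicate 1 (0.0854) or RNAi cold replicate 1 (0.0765) or 2 (0.0591). ETR2 was 1.53 times as high in RNAi (0.50 ± 0.14, adjusted p = 0.0165), a call lost after quantile normalization (0.0529), in a fit of the compared groups alone (0.0695) and without WT cold replicate 1 (0.0917) or RNAi cold replicate 3 (0.0669). In OX its difference was 0.33 ± 0.14 (adjusted p = 0.146). ETR3 differed by 0.37 ± 0.29 in OX (adjusted p = 0.441) and 0.45 ± 0.29 in RNAi (adjusted p = 0.272). Of the signalling genes, EIL1 differed by -0.00 ± 0.12 in OX (adjusted p = 0.998) and 0.22 ± 0.12 in RNAi (adjusted p = 0.206). EIN2 differed by 1.88 ± 0.86 in OX (adjusted p = 0.166) and 2.21 ± 0.86 in RNAi (adjusted p = 0.0666), neither called. The RNAi difference of EIN2 was without overlap and was called in 4 of 15 alternatives, and the WT cold libraries are split in EIN2.

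The root marker sum moved with ERS1 and ACC oxidase in WT, at 2.71 to 14.8 FPKM in WT control and 0.605 to 0.821 in WT cold libraries, against 1.84 to 8.74 in OX cold and 2.66 to 4.54 in RNAi cold libraries. It was mainly LSI1, a silicon transporter gene, while the root gene RCC3 was at 0.196 FPKM or less in every library. The secondary wall sum was 67.9 to 124 FPKM in WT cold, 123 to 216 in OX cold and 28.0 to 77.5 in RNAi cold libraries. These wall ranges overlapped between WT and each transgenic line, and the root ranges overlapped between OX and RNAi. The DREB1A and DREB1B sum was apart between all lines in the cold, highest in WT and lowest in RNAi. Cold differences of the receptors ran from -1.76 to -0.83 in WT, from -0.69 to 0.03 in OX and from -0.51 to 0.37 in RNAi. The part of these sums in the results was not tested.

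Between OX and RNAi in cold leaves, 1 of the 9 genes was called, with 5.94% of all genes called. This was ACS1, higher in OX by 0.91 ± 0.21 (adjusted p = 0.0188, limma), without overlap. The call was lost with a pseudocount of 0.1 (adjusted p = 0.112), in a fit of the compared groups alone (0.0931), and without OX cold replicate 3 (0.103), RNAi cold replicate 1 (0.0861) or RNAi cold replicate 2 (0.0511). Of all called genes, 63.2% were higher in OX as deposited, 46.3% after median-ratio scaling and 46.1% after quantile normalization. Intervals for ERS1 (-0.35 to 0.20) and ERS2 (-0.32 to 0.35) were narrow, and that for ACC oxidase (-1.16 to 1.19) was wide.

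The differences between cold responses were tested directly. For OX minus WT, 3 of 9 genes were called, all higher, where 7.25% of all genes were called higher and 3.11% lower. The higher ones were 70.0% of those called as deposited, 59.6% after median-ratio scaling and 54.2% after quantile normalization. They were ACS1 (1.77 ± 0.29, adjusted p = 0.00306, limma), ERS1 (0.97 ± 0.18, adjusted p = 0.00633) and EIN2 (4.55 ± 1.21, adjusted p = 0.0295). The EIN2 call rests on the 4 libraries under 1 FPKM in WT cold and OX control leaves. It was lost in 7 of 21 alternatives, namely with no filter (adjusted p = 0.0662) and without WT cold replicate 2 (0.0733) or 3 (0.0594), OX control replicate 2 (0.0655) or 3 (0.0609), or OX cold replicate 1 (0.0538) or 2 (0.06). Without WT control replicate 2 adjusted p was 0.00583 for ACS1, 0.0135 for ERS1 and 0.0406 for EIN2. ERS2 (0.67 ± 0.22, adjusted p = 0.0657), ETR2 (0.64 ± 0.20, adjusted p = 0.0564) and ETR3 (1.29 ± 0.42, adjusted p = 0.0601) did not pass.

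For RNAi minus WT, 7 of 9 genes were called, all higher, where 18.1% of all genes were called higher and 12.4% lower. ERS1 had the smallest adjusted p (1.31 ± 0.18, adjusted p = 0.000325, limma), followed by ERS2 (0.88 ± 0.22, adjusted p = 0.00932). The others were EIL1 (0.57 ± 0.18, adjusted p = 0.0245), ACC oxidase (2.50 ± 0.78, adjusted p = 0.0251), ETR2 (0.64 ± 0.20, adjusted p = 0.0262), ETR3 (1.26 ± 0.42, adjusted p = 0.0327) and EIN2 (3.40 ± 1.21, adjusted p = 0.0448). ACS1 (0.79 ± 0.29, adjusted p = 0.0539) and ACS2 (-0.70 ± 0.34, adjusted p = 0.129) did not pass. The count was 4 without WT control replicate 1 or 2 or WT cold replicate 1 or 2, and 3 without RNAi control replicate 2 or RNAi cold replicate 3. The ETR2 call was also lost after quantile normalization (adjusted p = 0.129). The ACC oxidase call was lost in 5 of 21 alternatives, namely with no filter (adjusted p = 0.0607) and without WT control replicate 1 (0.0563), WT cold replicate 1 (0.0682), RNAi control replicate 2 (0.0723) or RNAi cold replicate 3 (0.06). The EIN2 call rests on the split libraries and was lost in 11 of 21 alternatives, with adjusted p up to 0.117, and that of ETR3 in 11 of 20, up to 0.0859.

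Between the OX and RNAi cold responses 0 of 9 genes were called with limma, where 0.0475% of all genes were called. At an unadjusted p under 0.05 there was 1 of 9, beside 2035 of 23175 over all genes tested. The 1 member was ACS1, with a difference of 0.99 and an interval of 0.36 to 1.61 (adjusted p = 0.426).

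Other genes of ethylene synthesis and signalling were taken from a list of 30 loci, of which 29 were in the table and 19 passed the filter. This list too was chosen with earlier results of these data known. In the cold, 3 rose and 5 fell in WT, where 14.0% of all genes rose and 31.7% fell, so that the WT counts were near the shares of all genes. In OX 7 rose and 0 fell, with 13.6% and 22.4% of all genes, and in RNAi 8 rose and 1 fell, with 16.9% and 28.1%. Between cold leaves, 4 were higher and 0 lower in OX than in WT, with 9.49% and 3.38% of all genes, and 6 were higher and 1 lower in RNAi, with 15.7% and 11.9%. The names of 4 listed genes each led to 1 gene of the reference table, on the chromosome of the locus. MTK1, a kinase of the methionine cycle that recycles the by-product of ACC synthesis, rose by 0.42 ± 0.16 in WT (adjusted p = 0.0495, limma), 0.91 ± 0.16 in OX (adjusted p = 0.000447) and 0.90 ± 0.16 in RNAi (adjusted p = 0.00041). SAMS2, for an S-adenosylmethionine synthetase, was not called in the cold in any line. It stood at 654, 73.5 and 636 FPKM in WT control and at 280, 393 and 277 in WT cold leaves (-0.00 ± 0.56, adjusted p = 0.997). WT control replicate 2, the low value, enters this difference and the SE that all lines share. SAMS2 differed by 0.30 ± 0.56 in OX (adjusted p = 0.718) and by -0.98 ± 0.56 in RNAi (adjusted p = 0.172), where control and cold did not overlap. The ACC synthase gene ACS5 missed the filter, at 0.700, 1.18 and 1.19 FPKM in OX cold libraries and at most 0.203 elsewhere. The receptor gene ETR4 was listed at 0 in all 18 libraries.

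Among listed loci without a matched name, Os07g0685700 rose by 3.02 ± 0.27 in WT (adjusted p = 4.48e-07, limma), 3.08 in OX and 3.25 in RNAi, from 56.4 to 149 FPKM in control libraries to 647 to 872 in cold libraries. Os09g0451400 rose by 1.84 ± 0.45 in OX (adjusted p = 0.005) and 3.88 ± 0.45 in RNAi (adjusted p = 6.37e-06), and its difference in WT was 1.08 (adjusted p = 0.0647). Os03g0700800 fell by 1.66 ± 0.15 in WT (adjusted p = 6.68e-07), from 12.4 to 13.8 FPKM to 3.30 to 3.79, with differences of -0.34 in OX and -0.01 in RNAi that were not called. It was already lower before the cold in OX (6.62 to 8.79 FPKM, difference -0.67 ± 0.15, adjusted p = 0.0227) and in RNAi (7.66 to 8.49 FPKM, -0.64 ± 0.15, adjusted p = 0.0404). Of the listed genes it was the 1 called before the cold in OX, and 0 were called there once replicate 1 or 2 of the WT control or replicate 2 of the OX control was left out. In RNAi it was 1 of 2 called, and 0 were called once replicate 2 of the WT control or replicate 2 or 3 of the RNAi control was left out. The second was Os10g0419400 (-2.47 ± 0.54, adjusted p = 0.0279, limma), at 4.1, 22.6 and 4.44 FPKM in WT control and 1.77, 0.382 and 0 in RNAi control leaves. Between cold leaves, Os10g0419400 was also lower in RNAi than in WT (-1.73 ± 0.54, adjusted p = 0.0268), the 1 called lower there beside 6 called higher. Of these 6, the largest differences were in Os09g0451400 (1.82, adjusted p = 0.00851), Os02g0200900 (1.42, 1.9e-05) and Os04g0669600 (1.31, 0.00117). The 4 called higher in OX than in WT were Os04g0669600 (1.12, 0.00652), Os02g0200900 (0.86, 0.00155), Os03g0700800 (0.65, 0.0121) and Os09g0490200 (0.47, 0.0292). Os02g0200900 fell by 0.71 ± 0.15 in WT (adjusted p = 0.00136) and rose by 0.41 in OX (adjusted p = 0.041) and 1.08 in RNAi (adjusted p = 3.4e-05). Os02g0527600 fell by 0.81 ± 0.23 in WT (adjusted p = 0.0088, limma), and was not called in OX (-0.19) or RNAi (0.01). Os04g0669600 rose by 1.36 ± 0.24 in OX (adjusted p = 0.000362) and 1.18 ± 0.24 in RNAi (adjusted p = 0.000901), and was not called in WT (-0.08).

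Over the 18 libraries, which share lines and treatments, genes were ranked for each member by Pearson's r of log2(FPKM + 1). The set ranked held 21 genes (members, markers and pathway genes with matched names), from which the member itself was left out. DREB1A and DREB1B were nearest to ACS2 (r = 0.99 and 0.97) and to ACS1 (r = 0.93 for both), over values that jump between control and cold. Within the cold the order of lines differed, since mean ACS1 was 6.96 FPKM in WT, 26.9 in OX and 14.2 in RNAi, while DREB1A was at 418, 263 and 147 FPKM and DREB1B at 1511, 1006 and 607. ERS2, ETR2 and ETR3 were nearest to each other, with r from 0.66 to 0.81. ERS1 and ACC oxidase were nearest to each other (r = 0.71), and r of LSI1 with ERS1 was also 0.71. EIL1 was nearest to MTK1 (r = 0.71), and EIN2 had no near neighbour (highest r = 0.39, with EIL1).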

How the data were processed

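Sample titles gave the groups and replicate numbers. Per the labels' protocols, Trizol RNA went into Illumina TruSeq libraries. The authors deposited 1 table of FPKM values for 38610 genes in 18 libraries. The submitters' processing notes name Bowtie 0.12.2. Genome build, annotation, counter and filters: not given in the sources used here. Without read totals FPKM allows no counting interval.

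Values were analysed as log2(FPKM + 1) without further scaling, for genes with at least 1 FPKM in at least 3 libraries. All 18 libraries entered a single model of the 6 group means with a variance trend (limma 3.58.1 in R 4.3.3), giving 12 comparisons, each with Benjamini-Hochberg adjustment over the 23175 genes tested. The procedure was tested on simulated data. Members and lists were chosen with earlier results of these data known. All 9 members are named, and other pathway genes come from a list written from background knowledge. Names were checked by symbol and chromosome against RefSeq genes of assembly ASM3414082v1, and 7 of 9 member names led to 1 gene on the expected chromosome. Alternatives were another pseudocount, other filters, 2 scalings, no variance trend, library weights, a replicate block, fits of the compared groups alone and leaving out each library.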

Additional observations from a re-analysis of the deposited data

Results flagged for a closer look

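In 10 cases the cold response of a gene differed between a transgenic line and WT, by the limma test of the difference itself (adjusted p in brackets). For OX minus WT these were ACS1 with 1.77 (0.00306), ERS1 with 0.97 (0.00633) and EIN2 with 4.55 (0.0295). For RNAi minus WT they were ACC oxidase with 2.50 (0.0251), ERS1 with 1.31 (0.000325), ERS2 with 0.88 (0.00932), ETR2 with 0.64 (0.0262), ETR3 with 1.26 (0.0327), EIN2 with 3.40 (0.0448) and EIL1 with 0.57 (0.0245). Those of ACS1 in OX, of ERS1 in both lines and of ERS2 in RNAi were called in every alternative run. The EIN2 differences rest on the 5 libraries under 1 FPKM, and were lost in 7 of 21 alternatives for OX and 11 of 21 for RNAi, while that of ETR3 was lost in 11 of 20, ACC oxidase and ETR2 in 5 of 21 each and EIL1 in 3 of 21. Without WT control replicate 2, adjusted p was 0.0644 for ETR3, 0.0593 for EIN2 and 0.0534 for EIL1 in RNAi minus WT. Both sets of differences share the WT libraries.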

How the results depend on the processing

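Of 36 called results of single genes, 20 were called in every alternative, 16 were lost in some and 0 reversed. With the 9 genes, OX against WT in control leaves gave 1 call (0 as reported) after quantile normalization and, for EIN2 (adjusted p = 0.0454), with the replicate block, RNAi against WT in control gave 5 (0), all lower, with library weights, OX against RNAi in cold gave 0 (1) with a pseudocount of 0.1 and with the compared groups alone, and the RNAi minus WT response gave 4 (7) with no filter. Leaving out 1 library gave, in the order of cold in RNAi, OX and RNAi against WT in control, OX and RNAi against WT in cold, OX against RNAi in cold and the RNAi minus WT response, 3 to 6, 0 to 1, 0 to 1, 2 to 4, 3 to 6, 0 to 1 and 3 to 7 calls. Same-numbered libraries showed no clear tendency to deviate together (45 pairs, r from -0.595 to 0.409, 16 over 0.1). Their median r was 0.0376, against -0.0169 for other numbers, and 7 of 18 libraries were closest to their own number. A weak shared effect of replicate number could look like this, so pairing was not settled, and the main model left it out. The replicate block gave 7, 5 and 6 calls in the cold of WT, OX and RNAi.

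With the other pathway genes, fits of the compared groups alone gave 5 (8) calls for cold in WT, 4 (7) in OX, 0 (1) for OX against WT and 0 (2) for RNAi against WT in control, and 2 (1) for OX against RNAi in cold. Library weights gave 5 (2) for RNAi against WT and 2 (0) for OX against RNAi in control, and 9 (4), 11 (7) and 4 (1) for OX and RNAi against WT and OX against RNAi in cold. Over all genes tested the weights also gave more calls. In control these were 1983 higher and 4189 lower (201 and 403) for RNAi against WT, and 658 and 403 (206 and 195) for OX against RNAi. In cold they were 4559 and 2155 (2199 and 784) for OX against WT, and 5469 and 4613 (3632 and 2765) for RNAi against WT. For OX against RNAi in cold they were 2512 and 1430 (870 and 507). Of the pathway genes, RNAi against WT in control gave 1 with no filter and with a mean of at least 5 FPKM, and 0 with the replicate block. OX against RNAi in cold gave 2 with no filter and with each scaling. Leaving out 1 library gave 4 to 9 calls for cold in WT, 4 to 8 in OX, 0 to 1, 0 to 3 and 0 to 1 in the control comparisons, and 2 to 5 and 0 to 4 for OX against WT and against RNAi in cold. The cause of these shifts was not tested. Low genes are limited by unknown read totals.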
